A study of Mus musculus with 8 samples.

Results

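Collagens and laminins are the main structural proteins of the extracellular matrix, and their genes were followed here in the lateral ganglionic eminence (LGE), the embryonic zone that produces the projection neurons of the striatum. The genes were taken by name from 1 table: every protein-coding row whose symbol has the form of a collagen chain (Col, a type number, a, a chain number) or of a laminin chain (Lama, Lamb or Lamc and a number). This gave 41 of the 16913 genes in the table, 32 collagen and 9 laminin genes. The mouse annotation holds 14 further genes of these forms that were not analysed here. The tested embryos, Meis2-CKO, carried Dlx5/6-Cre and 2 floxed alleles of Meis2, a homeodomain transcription factor gene (genotype Dlx5/6-Cre;Meis2F/F). Their control littermates, Ctrl, carried the same Cre and 1 floxed allele (Dlx5/6-Cre;Meis2F/+), and are therefore not wild type. RNA came from LGE dissected at embryonic day 14.5, with 4 samples of each genotype, in mice of mixed C57BL/6J and CD1 origin. The Cre acts in Dlx-expressing cells of the ventral forebrain, so vessels, meninges and progenitors that do not express Dlx5 or Dlx6 keep their Meis2 alleles.

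Collagen chains wind in threes into rods. Fibrillar collagens pack side by side into the tough fibrils of connective tissue, cartilage and meninges. Type IV collagen forms a flexible mesh instead, and laminins, each a cross of an alpha, a beta and a gamma chain, polymerise beside it to make basement membranes. In the embryonic brain, basement membrane lines the vessels and the pial surface, where radial glia anchor their endfeet, while the neural tissue itself holds little fibrillar collagen.

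All levels below are the authors' mean expression signals, 1 per genotype, in a unit the header does not name. The signal looked length-scaled: when expressed protein-coding genes were cut into 5 bins of rising exon length, the bin median lay between 14.4 and 15.4 in Meis2-CKO and between 14.5 and 15.5 in Ctrl, with no trend. The means carry no spread between embryos and no sequencing depth, so no SD can be given and every difference rests on the authors' deposited p-values. The sources used here do not name the test. They leaned high, with a median of 0.760 over all genes, so a gene that did not pass is not shown to be unchanged. Meis2 averaged 140 in Meis2-CKO and 204 in Ctrl and fell (log2 fold change -0.53, adjusted p = 0.00195 in the authors' deposited table). The defining genes of the tissue were abundant, with Dlx1 at 496 in Meis2-CKO and 393 in Ctrl and Gad1 at 65.0 and 66.4; of 8 LGE neuron markers, 4 had a higher mean in Meis2-CKO, 4 a lower one, and 0 passed. At an unadjusted p under 0.05 were 5 of the 8 in the authors' deposited table, Dlx1, Dlx2 and Dlx5 with a higher mean and Stmn2 and Gad2 with a lower one, against 1.36% of protein-coding genes. The sexes of the embryos are not labelled. Ddx3y of the Y chromosome averaged 4.03 in Meis2-CKO and 14.1 in Ctrl and passed (adjusted p = 0.000279 in the authors' deposited table). Eif2s3y (14.0 in Meis2-CKO and 50.5 in Ctrl) and Kdm5d (4.09 and 13.05), also of the Y chromosome, were lower and passed too. Xist averaged 256 in Meis2-CKO and 78.0 in Ctrl and did not pass (p = 0.0136, adjusted p = 0.985 in the authors' deposited table). The mix of sexes may therefore differ between the genotypes, and its part in any difference below cannot be told apart from that of genotype. In bulk tissue, fewer cells of a type and less RNA per cell cannot be told apart.

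No collagen or laminin gene passed the threshold. Of the 41 members, 0 had an adjusted p of 0.05 or less in the authors' deposited table, where 0.78% of all genes and 0.344% of protein-coding genes did. At an unadjusted p under 0.05 there was 1 member, Col2a1, which is 2.44% of the members against 2.17% of all genes and 1.36% of protein-coding genes. The mean was higher in Meis2-CKO for 18 members, lower for 22 and equal for 1; over all protein-coding genes, 49.8% had a higher mean in Meis2-CKO. The median log2 ratio, taken as log2 of (Meis2-CKO mean + 0.1) over (Ctrl mean + 0.1), was -0.059 over the members and -0.00012 over all protein-coding genes.

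Most matrix genes were expressed at a low level in this tissue. The higher of the 2 genotype means was at least 1 for 25 members and at least 3 for 15, and the highest of all was that of Col2a1. If the signal is length-scaled, as it looked, the leading genes in Meis2-CKO were Col2a1, Col4a1, Lamb2, Lamc1 and Col4a2, all between 10.7 and 24.4. In Ctrl the same 5 genes stood between 11.5 and 18.3 and Col4a1 led. Col9a3, Col5a2 and Col18a1 followed, between 6.16 and 9.71 in Meis2-CKO and between 6.05 and 11.3 in Ctrl. The connective-tissue chains Col1a1, Col1a2 and Col3a1 stayed at or below 1.42 in Meis2-CKO and 2.18 in Ctrl.

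**Figure D1:**
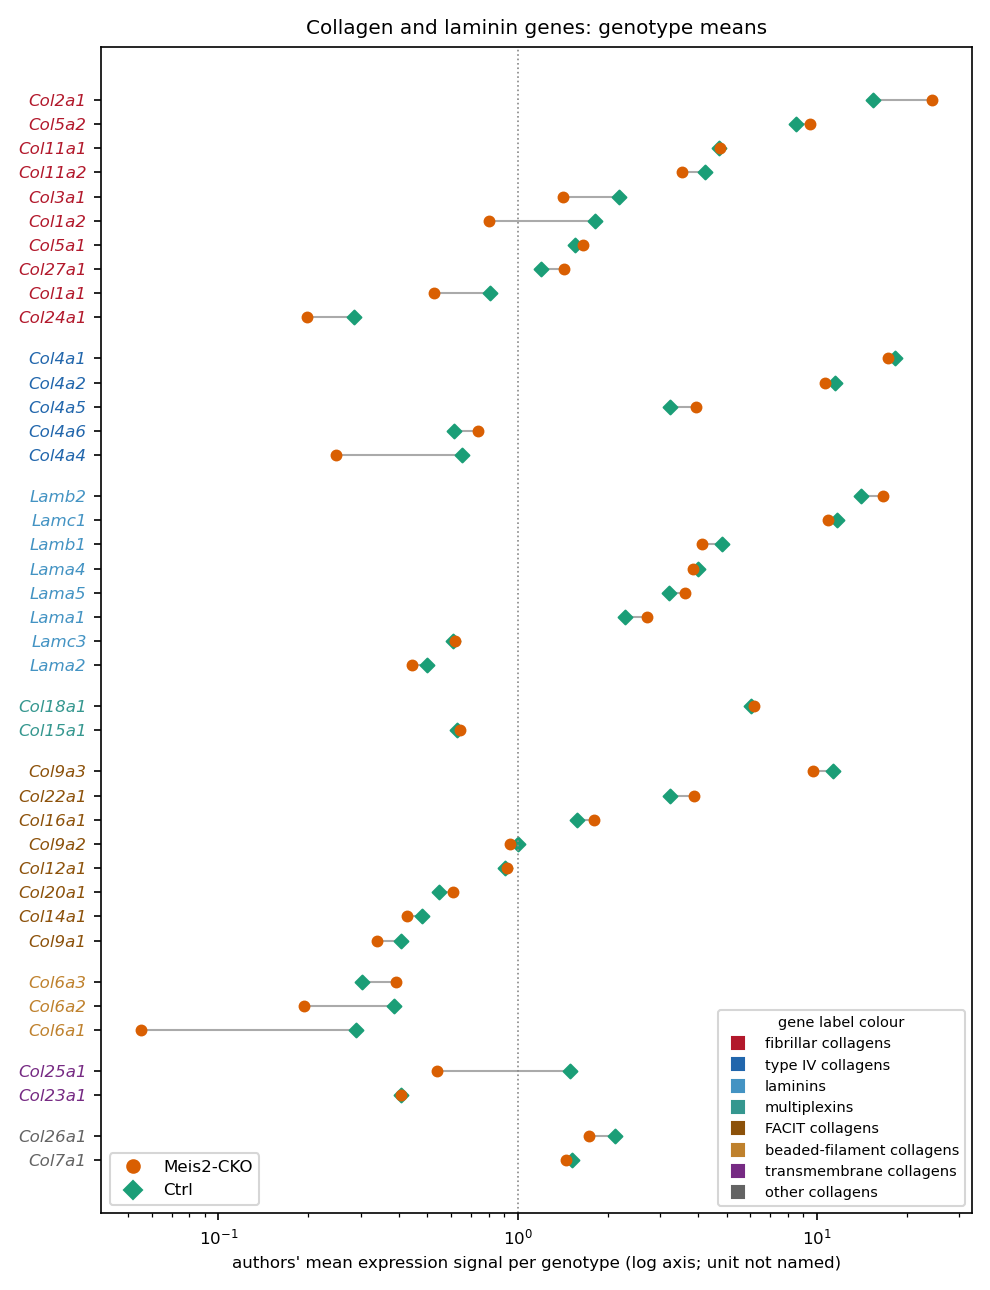
Authors' mean expression signal of the collagen and laminin genes, all but 1 of the 41 (x axis, log scale, unit not named) in Meis2-CKO (circles) and Ctrl (diamonds), grouped by class with gene names coloured by class. Each point is 1 genotype mean without an error. Most pairs of points nearly coincide; Col2a1 lies to the right in Meis2-CKO, at 24.4 against 15.4, and Col1a2, Col25a1, Col4a4 and Col6a1 lie to the left.

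Of the 10 fibrillar collagens, 5 had a higher and 5 a lower mean in Meis2-CKO, and the largest ratio was that of Col2a1. Col2a1 (ENSMUSG00000022483, GRCm38 chromosome 15, 97975602 to 98004695, minus strand) encodes the type II chain, the main collagen of cartilage, which in mouse embryos is also made transiently in neuroepithelium. It averaged 24.4 in Meis2-CKO and 15.4 in Ctrl, 1.59 times as high (log2 fold change 0.67, p = 0.00367, adjusted p = 0.355 in the authors' deposited table). It was therefore the only member with a small p, and it did not pass. Of 10555 protein-coding genes whose higher mean reached 3, 18 had a larger log2 ratio than Col2a1. Past 1.5-fold in the same direction were 30 of them, or 0.284%.

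The fibrils of type II collagen are built with type XI chains and coated by type IX collagen, and these partners had no like difference. Col11a1 averaged 4.76 in Meis2-CKO and 4.70 in Ctrl. Its partner chain Col11a2 averaged 3.55 in Meis2-CKO and 4.22 in Ctrl (log2 fold change -0.23, p = 0.646 in the authors' deposited table). Col9a3, a type IX chain that belongs to the collagens with interrupted helices (FACIT), averaged 9.71 in Meis2-CKO and 11.3 in Ctrl (log2 fold change -0.21, p = 0.510 in the authors' deposited table). Col9a2 averaged 0.943 in Meis2-CKO and 1.005 in Ctrl. The cartilage regulators Sox9 (18.7 in Meis2-CKO and 17.2 in Ctrl), Sox5 (22.3 and 19.3) and Sox6 (21.4 and 19.2) are shared with neural progenitors and did not pass. The other 5 of 8 cartilage markers, Acan, Matn1, Matn3, Hapln1 and Comp, were not analysed here.

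Radial glia markers stood beside Col2a1, all 10 with a higher mean in Meis2-CKO. Their summed signal was 1946 in Meis2-CKO and 1717 in Ctrl and their median log2 ratio 0.22, while that of Col2a1 was 0.66. None of the 10 passed. Nes, the intermediate filament of progenitors, averaged 126 in Meis2-CKO and 104 in Ctrl (p = 0.0123, adjusted p = 0.918 in the authors' deposited table). The part of these cells in the Col2a1 value was not tested.

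The chains of type I and III collagen had lower means in Meis2-CKO at low levels. Col1a2, the second chain of type I collagen, averaged 0.803 in Meis2-CKO and 1.82 in Ctrl, 2.27-fold lower (log2 fold change -1.06, p = 0.207 in the authors' deposited table). Col1a1, which shares its trimer, averaged 0.527 in Meis2-CKO and 0.807 in Ctrl (p = 0.634 in the authors' deposited table). Col3a1, whose product mixes with type I fibrils in soft tissue and meninges, averaged 1.42 in Meis2-CKO and 2.18 in Ctrl (log2 fold change -0.56, p = 0.431 in the authors' deposited table). None of the 3 passed. The type V chains, which start and thin such fibrils, did not share the lower means. Col5a2 averaged 9.50 in Meis2-CKO and 8.56 in Ctrl, and Col5a1 1.66 and 1.55. Col27a1, a fibrillar chain of cartilage, averaged 1.43 in Meis2-CKO and 1.20 in Ctrl.

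Low genes scattered more widely than others across the whole table. Of 1649 protein-coding genes with a higher mean from 1 to 3, 9.64% differed by more than 1.5-fold, and those lower in Meis2-CKO made up 6.43% of the 1649. In that range were 10 members, of which 3 differed by more than 1.5-fold, Col1a2, Col3a1 and Col25a1, all lower in Meis2-CKO. The log2 ratios of Col1a2 (-1.09) and Col25a1 (-1.33) lay below the 5th percentile of the genes in that range, -0.61, and that of Col3a1 (-0.58) just inside it. From a mean of 3 upward, 1 of 15 members, Col2a1, differed by more than 1.5-fold, against 1.57% of protein-coding genes. Under a mean of 1 it was 4 of 16 members (25%), against 25.8% of protein-coding genes, a close share with both directions counted. All 4 were lower in Meis2-CKO. Of the 1439 protein-coding genes in that range, 220 were lower by that much and 151 higher.

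**Figure D2:**
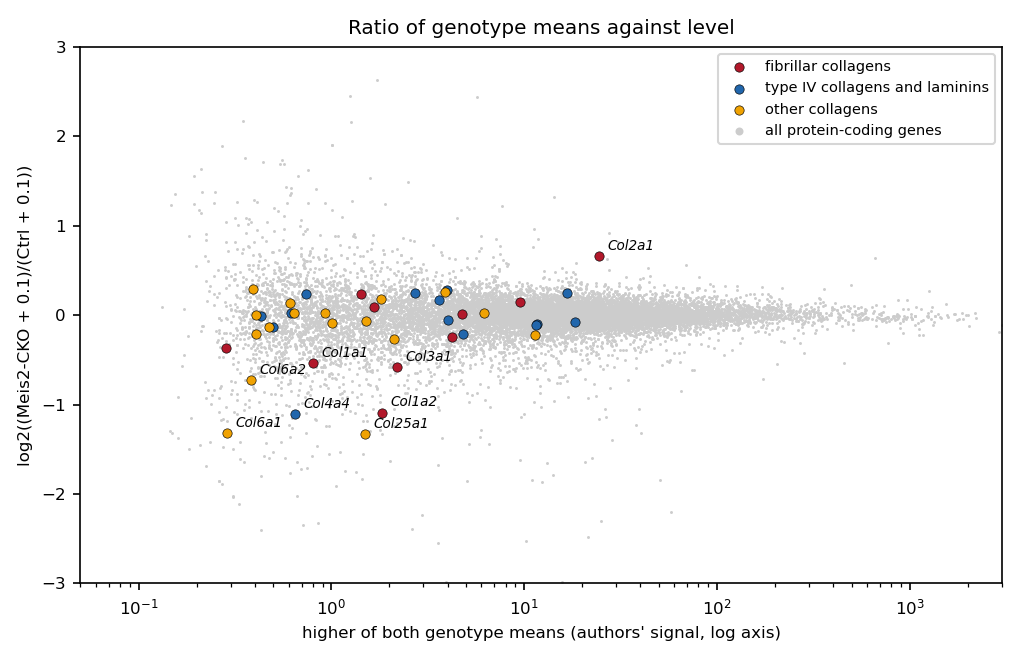
Log2 ratio of the genotype means, Meis2-CKO over Ctrl with 0.1 added to each (y axis), against the higher of both means (x axis, log scale) for all protein-coding genes with a higher mean over 0.05 (grey) and for the fibrillar collagens, the type IV collagens with laminins and the other collagens (colours). The grey cloud widens to the left; Col2a1 stands above most of it near a mean of 24.4, and the named genes below 0 lie at means under 3, where it is wide. Of these, Col1a2, Col25a1, Col4a4 and Col6a1 lie below the 5th percentile of protein-coding genes in their range of levels. Points beyond 3 on the y axis are not shown.

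Meningeal fibroblasts are the main source of type I and III collagen next to the brain, and their marker means ran from 0.030 to 17.0. Of 14 markers 8 were analysed, with a summed signal of 35.3 in Meis2-CKO and 33.9 in Ctrl, none passed, and none was at 0 in either genotype. The sum was mostly that of Crabp2 (17.0 in Meis2-CKO and 15.9 in Ctrl) and Bgn (11.2 and 10.3). Of the 8, 4 had a higher mean in Meis2-CKO and 4 a lower one, with a median log2 ratio of 0.006. The lowest ratios were those of the matrix proteoglycan genes Dcn and Lum. Dcn averaged 0.090 in Meis2-CKO and 0.475 in Ctrl (p = 0.286 in the authors' deposited table). Lum averaged 0.030 and 0.188 (p = 0.478 in the authors' deposited table). Both had means under 1, where 25.8% of protein-coding genes differed by more than 1.5-fold. The meningeal transcription factor Foxc1 averaged 0.733 in Meis2-CKO and 0.720 in Ctrl. The part of meningeal cells in the Col1a1, Col1a2 and Col3a1 values was not tested.

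Basement-membrane genes had similar means in both genotypes, apart from Col4a4, which was 2.63-fold lower in Meis2-CKO at means under 1. Of 14 members, 5 type IV collagen and 9 laminin genes, 0 passed, and the smallest p, that of Lamb2, was 0.321 in the authors' deposited table. Those with a higher mean of at least 1 numbered 9, and their log2 ratios ran from -0.21 for Lamb1 to 0.28 for Col4a5, so none differed by as much as 1.5-fold. Summed over all 14, the signal was 76.4 in Meis2-CKO and 76.0 in Ctrl.

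The main mesh-forming chains of vessel and pial basement membrane stood in nearly the same proportion in both genotypes. Col4a1 averaged 17.3 in Meis2-CKO and 18.3 in Ctrl (log2 fold change -0.07, p = 0.776 in the authors' deposited table). Col4a2, which joins it in 1 trimer, averaged 10.7 in Meis2-CKO and 11.5 in Ctrl (log2 fold change -0.09, p = 0.757 in the authors' deposited table). The signal of Col4a1 was 1.63 times that of Col4a2 in Meis2-CKO and 1.60 times in Ctrl. These genes lie head to head on chromosome 8 (Col4a1 11198423 to 11312826, minus strand; Col4a2 11312805 to 11449287, plus strand, GRCm38). Their annotated first bases are 21 bases apart and the transcribed spans overlap by 22 bases. The overlap is shown because transcription of both genes starts at its ends, with a GC box (GGGCGG) in capitals, from the RefSeq promoter table of GRCm38.p6, plus strand.
Col4a1 and Col4a2, chr8:11312805-11312826: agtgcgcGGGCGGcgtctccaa

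Vessel markers were nearly level beside them. The 10 endothelial markers had a summed signal of 61.0 in Meis2-CKO and 61.4 in Ctrl, with a median log2 ratio of -0.033, and 0 passed. Of the 10, 3 had a higher mean in Meis2-CKO and 7 a lower one. Pecam1 averaged 7.51 in Meis2-CKO and 6.53 in Ctrl, Esam 6.93 and 7.39, and Cldn5 21.7 in both. The 7 pericyte markers analysed summed to 30.2 in Meis2-CKO and 28.8 in Ctrl, again with 0 past the threshold.

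The second head-to-head pair of type IV chains lies on the X chromosome and had higher means in Meis2-CKO. Col4a5 (141475385 to 141689234, plus strand, GRCm38) averaged 3.96 in Meis2-CKO and 3.23 in Ctrl (log2 fold change 0.29, p = 0.575 in the authors' deposited table). Col4a6 (141165403 to 141474076, minus strand) averaged 0.740 in Meis2-CKO and 0.615 in Ctrl (p = 0.822 in the authors' deposited table). Neither passed, and both stand beside the higher Xist mean in Meis2-CKO, whose part in them was not tested. Their starts are separated by 1308 bases of annotation, which lie upstream of both genes, and the stretches shown for them below do not overlap. The autosomal Col4a4, at 0.247 in Meis2-CKO and 0.650 in Ctrl, was 2.63-fold lower (p = 0.391 in the authors' deposited table); its log2 ratio of -1.11 lay below the 5th percentile of protein-coding genes with a higher mean under 1, -0.99.

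The bases before the start of 4 genes are shown to set both X-linked type IV genes and a laminin gene beside a fibrillar one. They come from RefSeq's GRCm38.p6 promoter table, 5′ to 3′ on the gene's strand; that of Col4a5 ends before its first GENCODE base. Capitals mark promoter motifs, searched on both strands, and no matches overlap. The GC box was searched by the letters given above. For the TATA box these were TATAAA. The core of the Meis binding motif was searched as TGACAG. The CCAAT box was searched by its name.
Col4a5, chrX:141475169-141475384, plus strand: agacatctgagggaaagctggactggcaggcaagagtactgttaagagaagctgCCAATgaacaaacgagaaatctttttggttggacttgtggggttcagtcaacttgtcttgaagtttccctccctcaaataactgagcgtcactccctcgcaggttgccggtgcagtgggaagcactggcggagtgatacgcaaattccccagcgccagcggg
Col4a6, chrX:141474077-141474326, minus strand: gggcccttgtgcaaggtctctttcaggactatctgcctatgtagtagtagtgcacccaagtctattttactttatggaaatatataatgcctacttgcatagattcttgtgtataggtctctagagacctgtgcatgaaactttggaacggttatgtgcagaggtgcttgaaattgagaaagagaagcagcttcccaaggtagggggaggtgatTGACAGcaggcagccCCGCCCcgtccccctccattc
Lama5, chr2:180225860-180226109, minus strand: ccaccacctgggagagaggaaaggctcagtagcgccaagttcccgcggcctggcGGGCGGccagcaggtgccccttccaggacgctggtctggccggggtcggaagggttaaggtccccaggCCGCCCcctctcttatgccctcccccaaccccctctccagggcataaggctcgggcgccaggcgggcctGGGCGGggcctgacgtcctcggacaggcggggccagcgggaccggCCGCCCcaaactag
Col3a1, chr1:45311288-45311537, plus strand: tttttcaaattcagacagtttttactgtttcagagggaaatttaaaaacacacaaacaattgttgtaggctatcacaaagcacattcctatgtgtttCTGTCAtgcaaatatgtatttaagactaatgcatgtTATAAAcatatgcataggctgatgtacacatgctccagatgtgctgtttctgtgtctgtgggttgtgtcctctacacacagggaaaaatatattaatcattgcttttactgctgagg

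The Lama5 stretch held 4 GC boxes and was 72.4% G and C. That of Col3a1 held a match to the TATA letters and no GC box. Promoter windows were found for 28 of the 41 members, and Col2a1 was among the 13 without one. Col3a1, at 35.2% G and C, was the lowest of the 28. Median G and C was 59.6% over 7 fibrillar and 62% over 9 basement-membrane genes, and 52.4% over all promoter windows. In the 250 upstream bases, 5 of 9 basement-membrane genes and 5 of 7 fibrillar genes held a GC box, against 32.7% of all 32851 promoter windows. A TATA box stood in 0 of 9 basement-membrane and 2 of 7 fibrillar genes, against 12.4% of windows, and a CCAAT box in 4 and 2, against 33.8%. The Meis core stood in 2 basement-membrane genes and 1 fibrillar gene, against 15.9% of windows. A match is a run of letters and not a binding site.

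Laminin chains followed no common direction. Of the alpha chains, which carry the receptor-binding end, Lama1 of early and pial membranes averaged 2.72 in Meis2-CKO and 2.28 in Ctrl (log2 fold change 0.25, p = 0.680 in the authors' deposited table). Lama5, the widespread alpha chain, averaged 3.62 in Meis2-CKO and 3.21 in Ctrl, and Lama4, the chain of vessel walls, 3.85 and 4.01. Lama2, the chain of muscle and some brain vessels, averaged 0.445 in Meis2-CKO and 0.497 in Ctrl.

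The beta chains lay on either side of 0. Lamb2, of pial and synaptic membranes, averaged 16.7 in Meis2-CKO and 14.1 in Ctrl (log2 fold change 0.26, p = 0.321 in the authors' deposited table). Lamb1, which can take the same place in the trimer, averaged 4.15 in Meis2-CKO and 4.83 in Ctrl (log2 fold change -0.20, p = 0.668 in the authors' deposited table). Lamc1, the gamma chain of most laminins, averaged 10.9 in Meis2-CKO and 11.7 in Ctrl. Lamb2 stood at 1.53 times the signal of Lamc1 in Meis2-CKO and 1.21 times in Ctrl, and Lamb1 at 0.381 and 0.414 times. Lamc3 averaged 0.620 in Meis2-CKO and 0.607 in Ctrl.

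Set against each other, fibrillar and basement-membrane genes gave no stable direction. The median log2 ratio of the 10 fibrillar genes was -0.11 and that of the 14 basement-membrane genes -0.033, a difference of -0.080. With a higher mean of at least 1, the medians were 0.054 over 8 and -0.059 over 9, and the difference was 0.11. Without Col2a1 the fibrillar median was -0.24 over 9 genes. Fibrillar log2 ratios with a higher mean of at least 1 ran from -1.09 (Col1a2) to 0.66 (Col2a1). Of these 8 genes, 3 differed by more than 1.5-fold, in both directions, and 0 of 9 basement-membrane genes did, against 2.66% of protein-coding genes at that level. The lists differ in level. With a higher mean from 1 to 3, 2 of 4 fibrillar genes and 0 of 1 basement-membrane gene differed that much, against 9.64% of protein-coding genes. From a mean of 3 upward it was 1 of 4 fibrillar genes, Col2a1, and 0 of 8 basement-membrane genes, against 1.57%. Summed signal was 48.2 in Meis2-CKO and 40.7 in Ctrl for the fibrillar list, and 23.8 and 25.3 with Col2a1 left out. The genes are not replicates of a genotype, so no test was made of the difference between the lists.

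**Figure D3:**
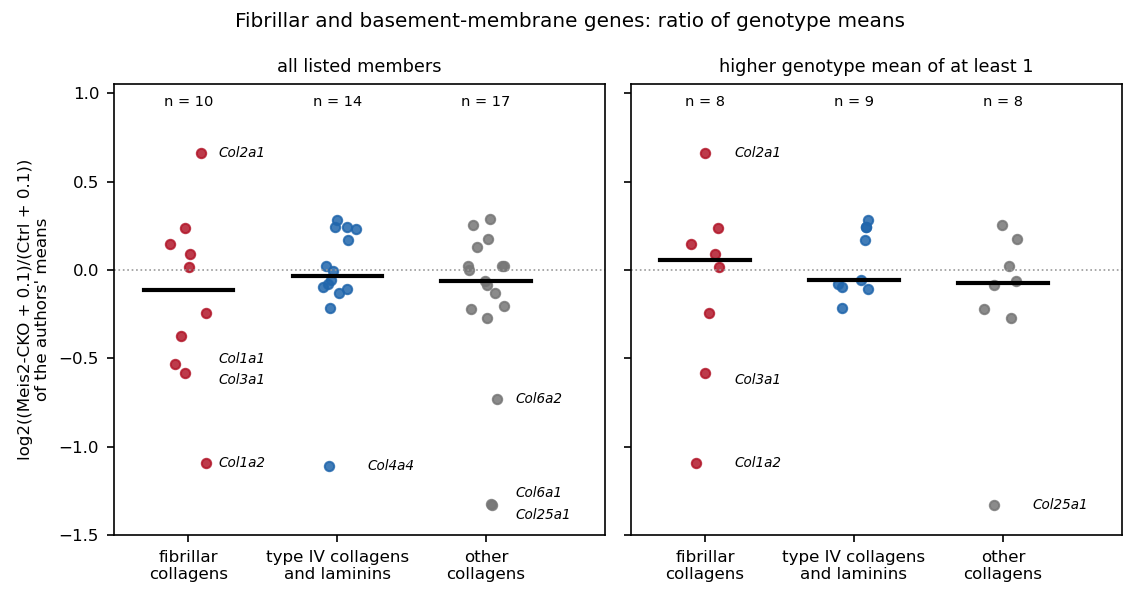
Log2 ratio of the genotype means, Meis2-CKO over Ctrl with 0.1 added to each (y axis), for fibrillar collagens, type IV collagens with laminins, and other collagens; each point is a gene and each bar the median of the list. In the left panel all 41 genes are shown and in the right the 25 with a higher mean of at least 1. The fibrillar bar lies at -0.11 on the left and at 0.054 on the right, and that of type IV collagens and laminins at -0.033 and -0.059.

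The remaining collagens were split in the same way between near-level genes and low ones. Col18a1, a multiplexin of vessel and epithelial basement membranes that yields endostatin, averaged 6.16 in Meis2-CKO and 6.05 in Ctrl, and its relative Col15a1 0.640 and 0.627. Among FACIT collagens, Col22a1 of tissue junctions averaged 3.90 in Meis2-CKO and 3.25 in Ctrl (log2 fold change 0.27, p = 0.609 in the authors' deposited table). Col16a1 averaged 1.80 in Meis2-CKO and 1.58 in Ctrl. Col7a1, the chain of the anchoring fibrils under skin, averaged 1.45 in Meis2-CKO and 1.52 in Ctrl, and Col26a1 1.74 and 2.12. None of these 6 passed. The 4 other FACIT genes with means under 1, Col12a1, Col14a1, Col20a1 and Col9a1, ran from 0.340 to 0.925 in Meis2-CKO and from 0.407 to 0.910 in Ctrl.

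Col25a1 had the lowest log2 ratio among members with a higher mean of at least 1. It encodes a neuronal transmembrane collagen that in mouse is needed for motor axons to enter muscle, and it averaged 0.537 in Meis2-CKO and 1.5 in Ctrl, 2.79-fold lower (log2 fold change -1.28, p = 0.173 in the authors' deposited table). It did not pass. Col23a1, also transmembrane, averaged 0.407 in both genotypes. The type VI chains, which form beaded filaments around connective-tissue cells, had still lower levels: Col6a1 averaged 0.055 in Meis2-CKO and 0.287 in Ctrl, 5.23-fold lower without an added constant, and Col6a2 0.193 and 0.385. Col6a3 lay the other way at 0.393 in Meis2-CKO and 0.302 in Ctrl. Col24a1, a fibrillar gene, averaged 0.198 in Meis2-CKO and 0.285 in Ctrl.

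Genes that make, bind and cut these proteins gave no call either. Of all protein-coding genes 0.344% passed, so 0 in lists this short does not set these genes apart. Of 15 receptor genes analysed, 0 passed and 12 had a higher mean in Meis2-CKO, with a median log2 ratio of 0.084. Smallest in p was Sdc3, a syndecan of axons, at 31.4 in Meis2-CKO and 36.9 in Ctrl (p = 0.201 in the authors' deposited table). Itga6, a laminin-binding integrin of radial glia, averaged 30.8 in Meis2-CKO and 26.9 in Ctrl (p = 0.270 in the authors' deposited table). The other basement-membrane components held 16 genes, 13 with a higher mean in Meis2-CKO, 0 past the threshold and a median of 0.10. Fbln1, a fibulin, averaged 19.4 in Meis2-CKO and 15.8 in Ctrl (p = 0.204 in the authors' deposited table). Pxdn, the peroxidase that cross-links type IV collagen, averaged 60.8 in Meis2-CKO and 56.4 in Ctrl (p = 0.372 in the authors' deposited table). Over all protein-coding genes with a higher mean of at least 1, 50.3% had a higher mean in Meis2-CKO.

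The collagen biosynthesis list held 26 genes, 16 with a higher mean in Meis2-CKO, 0 past the threshold and a median log2 ratio of 0.030. Serpinh1, the collagen chaperone of the endoplasmic reticulum, averaged 40.6 in Meis2-CKO and 36.2 in Ctrl (p = 0.284 in the authors' deposited table). Plod3, which hydroxylates and glycosylates collagen lysines, averaged 29.4 in Meis2-CKO and 27.0 in Ctrl (p = 0.484 in the authors' deposited table). Of 13 matrix proteases and inhibitors 6 had a higher mean and 0 passed, with a median of -0.011. Mmp14, a membrane-bound collagenase, averaged 39.0 in Meis2-CKO and 31.4 in Ctrl (log2 fold change 0.33, p = 0.0583 in the authors' deposited table). Mmp15, a close relative, averaged 11.0 in Meis2-CKO and 9 in Ctrl (p = 0.354 in the authors' deposited table).

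**Figure D4:**
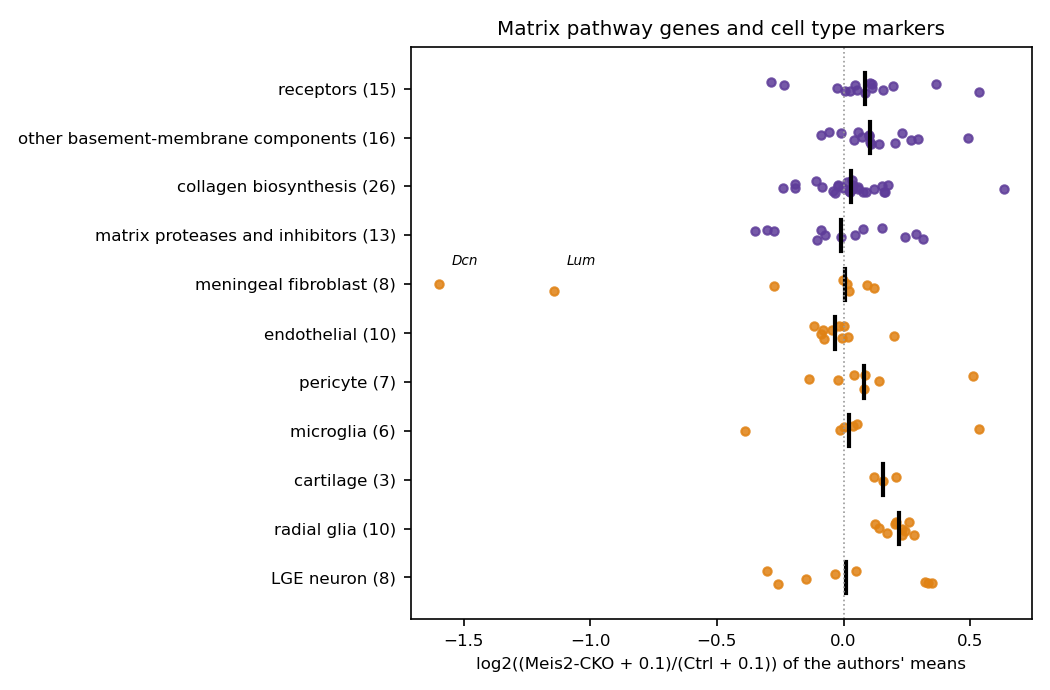
Log2 ratio of the genotype means, Meis2-CKO over Ctrl with 0.1 added to each (x axis), for genes of 4 matrix pathway lists (purple) and 7 lists of cell type markers (orange); each point is a gene, each bar the list's median, and the number analysed stands in brackets. Radial glia markers lie above 0 with a median of 0.22, endothelial markers lie around a median of -0.033, and Dcn and Lum are the only points below -1.

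Microglia and choroid plexus markers were checked as further cells the dissection could hold. The 6 microglia markers summed to 43.9 in Meis2-CKO and 42.6 in Ctrl, with 0 past the threshold. Cx3cr1 averaged 5.49 in Meis2-CKO and 3.76 in Ctrl, and Aif1 2.89 and 3.82. Of 7 choroid plexus markers 2 were analysed, Otx2 at 7.50 in Meis2-CKO and 7.78 in Ctrl and Kcnj13 at 0.355 and 0.035. Neither passed (p = 0.913 for Otx2 and 0.267 for Kcnj13 in the authors' deposited table), and both Kcnj13 means were low. The part of these cells in any collagen or laminin value was not tested.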

How the data were processed

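RNA-seq of LGE from 4 Meis2-CKO and 4 Ctrl samples was used. Per the submitters' processing notes, FastQC 0.11.5, HISAT2 2.1.0, StringTie 1.3.1 and the builds GRCm38.p2 and mm10 were involved, without stated roles. The deposited expression signal is the authors' mean per genotype, per the file headers, with no unit named. The log2 fold change, p-value and adjusted p were deposited by the authors, per the file headers, and recomputing Benjamini-Hochberg over all 16913 genes gave the same adjusted p. The 8 columns of values per library have names that match no sample label and were not used, so no model, left-out replicate or replicate block was run. Depth is unknown.

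Log2 ratios of means used a pseudocount of 0.1. Members, lists and alternatives were chosen with earlier results of these data known. Named were all members with a higher mean of at least 1, the lower ones that stood out, and the 2 genes of smallest p in each pathway list; Dcn, Lum and other markers were named beside the results they touch, some after their values were seen. A few low members were also named after their values were seen. Values of 1 member are not reported here, though counts and medians include it. All 41 members matched GENCODE M21 (GRCm38) by Ensembl ID. Sequences came from RefSeq's table (GRCm38.p6). Ratios and adjustments were tested on simulated data. Python 3.11.15, numpy 2.4.6, pandas 2.3.3 and matplotlib 3.10.9 were used.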

Additional observations from a re-analysis of the deposited data

How the results depend on the processing

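The count of members past the threshold was 0 under the Benjamini-Yekutieli adjustment and under Benjamini-Hochberg adjustment over protein-coding genes or over genes with a higher mean of at least 1, with adjusted p for Col2a1 of 1, 0.706 and 0.292. The fibrillar median log2 ratio (-0.11) was 0.054 with a higher mean of at least 1, 0.017 with at least 0.5, -0.53 for Col1a1, Col1a2, Col3a1, Col5a1 and Col5a2 alone, and -0.24 without Col2a1. The fibrillar minus basement-membrane difference (-0.080) was 0.11, 0.034, -0.50 and -0.21 in the same settings. These follow from which genes enter: the minimum of 1 leaves out Col1a1 and Col24a1, and that of 0.5 leaves out Col24a1, each with a lower mean in Meis2-CKO. A median was counted as moved when it shifted by more than 0.1. By that measure none moved under a pseudocount of 1 or 0.01, centring, the deposited log2 fold change, other sets of basement-membrane genes, or without the X-linked Col4a5 and Col4a6. The runs without Col2a1 and without the X-linked genes were added after the data were seen. The share of members with a higher mean in Meis2-CKO (43.9%) was 48% and 53.1% at those minimum means. No paired analysis was possible because the library columns carry no sample labels. Leaving out each replicate was not run for the same reason. Means without depth limit what can be read from members under 1.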
